A study of Mus musculus with 3 samples.

Results

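The genes examined here were 9 target genes of the transcription coactivators YAP and TAZ: Ccn1, Ccn2, Ankrd1, Amotl2, Ajuba, Lats2, Axl, Ptpn14 and Crim1. They were taken by symbol from the deposited feature table, and all 9 were found among its 32285 genes. Their UMIs (unique molecular identifiers, each standing for 1 captured transcript) were summed by skin cell type in 3 single-cell libraries of mouse back skin. Each group is 1 library. The control carried K5-Cre-er, 1 floxed and 1 wild-type Piezo1 allele (Piezo1fl/+) and Tdfl/+, and was aged 62 postnatal days. The 2-week Piezo1iKO library was Piezo1fl/fl and Tdfl/+ at 62 days. The 3-week Piezo1iKO library was Piezo1fl/fl and Tdfl/fl at 71 days. All mice were C57BL/6 and carried the Cre driver, and all received tamoxifen from day 48 to day 52. The control therefore also had 1 floxed Piezo1 allele open to deletion by the Cre. Age and the number of Td alleles differed between the 3-week library and the control, so in that comparison knockout, age and Td genotype cannot be told apart. K5 stands for the keratin 5 promoter, active in basal epithelial cells, and the labels call the deletion epithelial. The number of mice behind each library is not given in the sources used here.

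YAP and TAZ are held in the cytoplasm when the Hippo kinases MST1, MST2, LATS1 and LATS2 are active, and enter the nucleus when cells spread, stretch or lose contact with neighbours. There they bind TEAD factors, which recognise the DNA word CATTCC, and switch on genes such as those examined here. In skin they are known for supporting the growth of basal keratinocytes and hair follicle progenitors. Piezo1 is a stretch-gated cation channel. Several of the target genes feed back on the pathway: LATS2, AMOTL2 and PTPN14 restrain YAP and TAZ, and AJUBA restrains LATS kinases.

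The TEAD recognition word is shown because it is common to the promoters of these genes. The genes were taken as YAP and TAZ targets, which act through TEAD factors, so finding the word is not independent of the list. RefSeq promoters of GRCm38.p6, from 250 bases before to 50 bases after the start site, were given for 8 of the 9 genes, none of them Ccn2. Each of those 8 genes had at least 1 TEAD core, searched as CATTCC on both strands (GGAATG on the other). Of their 9 listed promoters 8 had a core, against 14.7% of the 32851 promoters in the table. Neither of 2 other motifs searched on both strands was found in them: the AP-1 motif TGANTCA (7.81% of all promoters) and the CArG box of serum response factor (1.63%). No match overlapped another motif, since only TEAD cores were found. A match of letters is a description and shows no binding. The whole Ccn1 promoter and the stretch around each core of the other genes are printed 5′ to 3′ on the gene's strand, with the core in capitals.

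Ccn1 promoter (chr3:145649936-145650235, minus strand): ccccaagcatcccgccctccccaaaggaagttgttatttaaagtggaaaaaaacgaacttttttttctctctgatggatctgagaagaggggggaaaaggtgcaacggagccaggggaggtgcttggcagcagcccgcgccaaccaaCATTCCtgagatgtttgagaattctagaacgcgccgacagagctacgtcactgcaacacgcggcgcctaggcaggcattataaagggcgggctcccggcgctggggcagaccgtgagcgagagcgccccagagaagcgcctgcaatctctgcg

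Ankrd1 (chr19:36120027-36120076, minus strand): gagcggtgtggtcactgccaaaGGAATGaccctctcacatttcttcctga

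Ankrd1 (chr19:36119940-36119989, minus strand): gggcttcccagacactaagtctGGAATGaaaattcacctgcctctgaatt

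Amotl2 (chr9:102717717-102717766, plus strand): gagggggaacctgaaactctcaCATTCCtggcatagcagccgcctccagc

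Ajuba (chr14:54577798-54577869, minus strand): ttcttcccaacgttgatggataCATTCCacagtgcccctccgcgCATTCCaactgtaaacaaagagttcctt

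Lats2 (chr14:57746092-57746141, minus strand): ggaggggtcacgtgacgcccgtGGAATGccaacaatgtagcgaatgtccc

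Axl (chr7:25788939-25788983, minus strand): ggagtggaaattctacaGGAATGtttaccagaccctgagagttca

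Ptpn14 (chr1:189728100-189728149, plus strand): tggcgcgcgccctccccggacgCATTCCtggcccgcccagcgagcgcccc

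Crim1 (chr17:78200147-78200196, plus strand): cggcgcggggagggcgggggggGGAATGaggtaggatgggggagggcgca

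The core lay 103 bases before the Ccn1 start site and 65 bases before that of Amotl2. Ajuba had 2 cores, 186 and 164 bases upstream, and Ankrd1 had 2, at 210 and 123 bases. In Ptpn14, Crim1 and Axl the single core lay 146, 79 and 233 bases upstream. Lats2 had its core 4 bases after the start site of 1 of its 2 listed promoters, and its other promoter had none. These genes were highest in different cell types and differed in direction between control and knockout.

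Cells were clustered with the 9 genes left out of the clustering, and classes are likenesses by marker genes. Filtering left 4883 control, 9539 2-week and 9576 3-week cells. Their median depth was 9968, 7495 and 8762 UMIs. The libraries shared 17 to 29 barcodes in pairs. Levels are given as CPM, a gene's scaled share of all UMIs of the class. Ratios are knockout over control with exact 95% intervals. These intervals cover counting error only, and with 1 library per group there is no replicate check and no test of any difference. A ratio was called measurable if the gene had 50 or more UMIs in the pair of libraries, reached 20 CPM in either and held 0.1 or more of its level in its highest class. It was counted as lower or higher at 1.5-fold or more. Both knockouts were compared with the same control, so the 2 comparisons are not independent and agreement between them is no support. Piezo1 itself, the targeted gene, was at 33.5, 22.7 and 15.05 CPM in control, 2-week and 3-week interfollicular basal-like keratinocytes, and at 77.8, 45.3 and 23.4 CPM in outer bulge-like keratinocytes. Which exons are floxed is not given in the sources used here. Piezo1 was also lower in both knockout libraries in dermal papilla or sheath-like cells, which are mesenchymal, as given below. The lower counts were thus not particular to the targeted lineage and do not check the labels.

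Ccn1 and Ccn2 encode secreted matricellular proteins that bind integrins, and are the most widely used readouts of YAP and TAZ. Ccn1 (chr3:145646976-145649981, minus strand, mm10) was highest in outer bulge-like keratinocytes, the stem cell region of the hair follicle marked here by Krt24, Postn and Lgr5. There it was at 3164 CPM in control (13578 UMIs from 531 cells), 2248 CPM in the 2-week knockout (44361 UMIs from 3005 cells) and 1598 CPM in the 3-week knockout (8055 UMIs from 905 cells). The 3-week library was the lowest of the 3, at 0.51 of control (0.49 to 0.52), and the 2-week library lay between, at 0.71 (0.70 to 0.72). In control the order below the bulge was cluster 10 at 2235 CPM, dermal papilla or sheath-like cells at 1060, fibroblast-like cells at 1008 and cluster 15 at 807. Dermal papilla-like and fibroblast-like cells did not differ beyond counting error, and neither did cluster 3 (358), interfollicular basal-like cells (345) and cluster 5 (325). Upper hair follicle-like and suprabasal-like keratinocytes held 78.0 and 70.2 CPM, the lowest of the epithelial groups with at least 100 control cells.

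**Figure D1:**
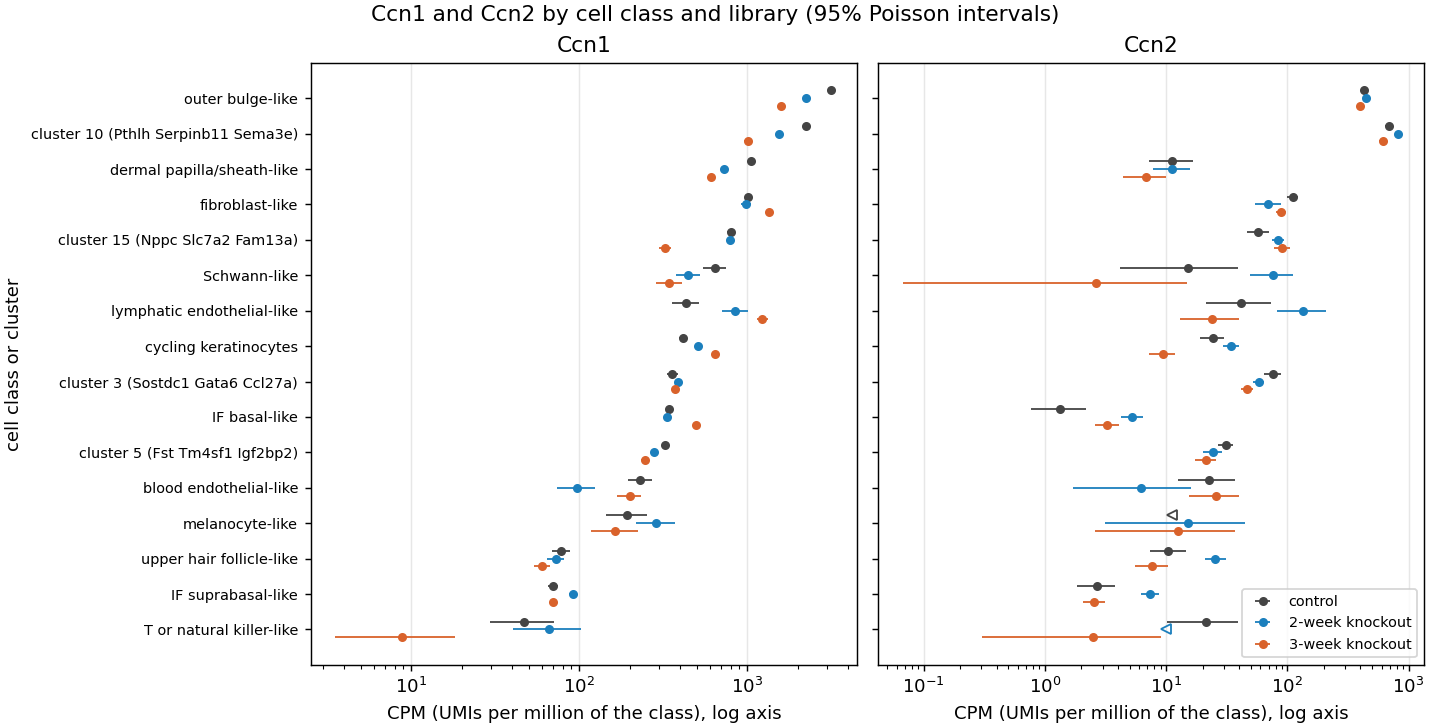
Ccn1 (left) and Ccn2 (right) in CPM on a log axis, for each cell class or unnamed cluster with at least 50 cells in every library; points are the 3 libraries, bars are 95% Poisson intervals, and open triangles mark the level of 3 counts where no UMI was seen. Ccn1 runs from 3164 to 1598 CPM over the libraries in outer bulge-like cells, while Ccn2 stays between 397 and 444 CPM there.

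Cluster 10, a keratinocyte cluster led by Pthlh, Serpinb11 and Sema3e that took no class name, had the same order: 2235, 1548 and 1014 CPM of Ccn1 in control, 2-week and 3-week cells. Its ratios were 0.69 (0.66 to 0.73) and 0.45 (0.42 to 0.49). Cluster 15, led by Nppc, Slc7a2 and Fam13a, was at 807, 794 and 325 CPM, so that the 3-week library alone stood apart there, at 0.40 of control (0.37 to 0.44). Interfollicular basal-like cells went the other way at 3 weeks. They held 345, 332 and 494 CPM, with ratios of 0.96 and 1.43 (1.38 to 1.48). The 3-week difference sat in cluster 2 of that class (1.43) and not in cluster 7 (1.04, 0.96 to 1.12). Cycling keratinocytes held 415, 512 and 642 CPM, again highest in the 3-week knockout, at 1.55 of control (1.46 to 1.65). Ccn1 was therefore lower in bulge-like cells and higher in cycling cells of one and the same 3-week library.

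Outside the epithelium, Ccn1 was also lower in dermal papilla or sheath-like cells, which are mesenchymal: 1060, 733 and 606 CPM, with ratios of 0.69 (0.65 to 0.73) and 0.57 (0.54 to 0.61). In these cells Piezo1 was at 105, 57.7 and 46.8 CPM, and the summed level of 10 basal keratinocyte markers was 1042, 1117 and 910 CPM. The 13 suprabasal markers summed to 305, 286 and 1382 CPM, and 10 upper hair follicle markers to 139, 140 and 1025 CPM, both highest in the 3-week library, as were 11 macrophage or monocyte markers (851, 972 and 1466 CPM). Markers of T or natural killer cells summed to 68.6, 0.341 and 4.87 CPM (2, 10 and 4 of 11 at 0), and those of Langerhans or dendritic cells to 397, 104 and 168 CPM (3, 4 and 2 of 11 at 0), both highest in control. The part of these other-cell markers in the Ccn1 values was not tested. In fibroblast-like cells Ccn1 was at 1008, 982 and 1352 CPM, highest in the 3-week library. The 2-week fibroblast-like class held 151 cells, 101 of them in cluster 17, while most control cells (320 of 424) were in cluster 9, and the 10 fibroblast markers summed to 94107, 48363 and 58976 CPM. The part of these shifts in the fibroblast-like values was not tested.

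The difference in bulge-like cells was also seen cell by cell. Clusters of the class had unlike Ccn1 levels, and cluster 1 made up 437 of 531, 2268 of 3005 and 613 of 905 cells. Class-wide values therefore mix the level of a cell with the make-up of the class, and values within clusters follow below. Their median depth was 8147, 6473 and 5498 UMIs, lower in the same order as Ccn1, so cells were thinned to 3000 UMIs each before they were compared. This left out 20, 246 and 141 shallower cells. A thinned bulge-like cell carried a mean of 9.06, 6.25 and 4.24 Ccn1 UMIs in control, 2-week and 3-week cells, and a median of 5, 4 and 1.5. The 90th percentile was 25, 16 and 12 UMIs, so both the middle and the top of the distribution were lower. Cells with at least 1 Ccn1 UMI made up 81.4%, 77.5% and 63.9% after thinning (85.9%, 82.3% and 70.8% before). The same share in T or natural killer-like cells was 6.45%, 7.14% and 3.87% after thinning, at median depths of 4170, 3364 and 3696 UMIs. This share is used as a guide to free RNA, which was not measured, on the assumption that those cells make no Ccn1. Bulge-like cells lay far above it in every library.

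**Figure D2:**
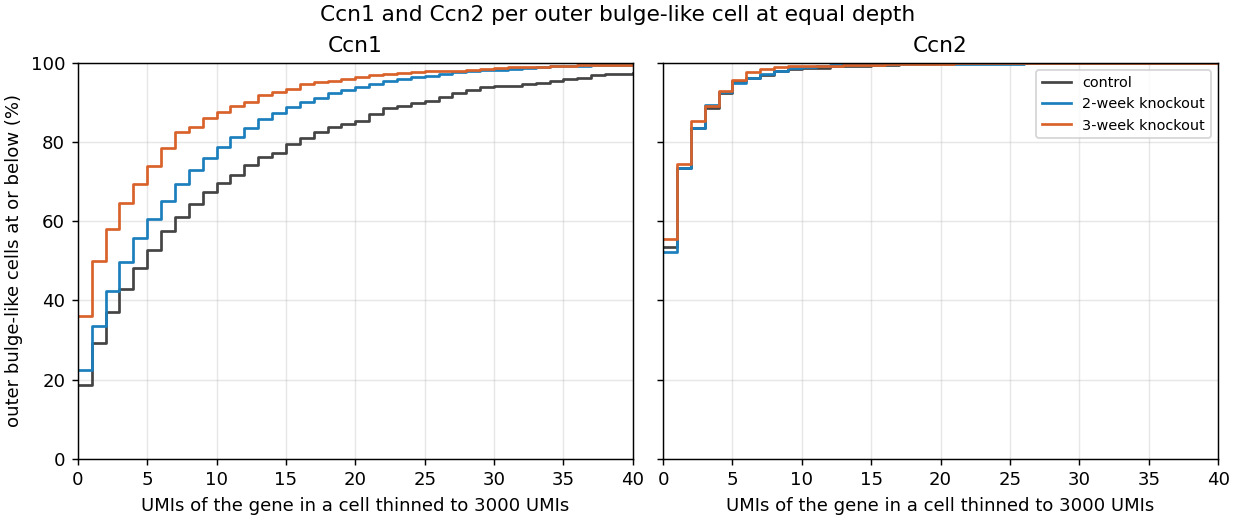
Share of outer bulge-like cells (vertical axis, percent) with at most a given number of Ccn1 (left) or Ccn2 (right) UMIs after thinning each cell to 3000 UMIs; lines are the 3 libraries. The Ccn1 lines separate, with medians of 5, 4 and 1.5 UMIs, and the Ccn2 lines lie close together, with means of 1.29, 1.28 and 1.17 UMIs. Lines are of the whole class, whose mix of clusters differed between libraries.

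Within the bulge-like class, both clusters large enough to compare had CPM ratios below 1. In cluster 1 it was at 3634, 2672 and 2096 CPM (ratios 0.74 and 0.58), and in cluster 13, led by Fgf18 and Ramp1, at 431, 358 and 190 CPM (0.83 and 0.44). Thinned means in cluster 1 kept that order, at 10.8, 7.83 and 5.95 UMIs per cell, with medians of 7, 6 and 3. In cluster 13 the thinned means did not at 2 weeks, at 0.870, 1.04 and 0.553 UMIs, so only its 3-week difference held at equal depth. Cluster 16 had 24 control cells and was not compared. The 11 bulge markers summed to 4714, 5138 and 4454 CPM in the class (1 of them at 0 in the 3-week library), a narrower range than that of Ccn1, and the 10 basal markers to 12446, 11736 and 12346 CPM.

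Ccn2 (chr10:24595442-24598683, plus strand) shared the 2 highest places with Ccn1 but not its differences. It was highest in cluster 10, at 684, 813 and 616 CPM, and next in outer bulge-like cells, at 433, 444 and 397 CPM. The bulge-like ratios were 1.03 (0.98 to 1.08) and 0.92 (0.86 to 0.98), so any difference in Ccn2 there was small beside that in Ccn1. Although Ccn2 took no part in the clustering, it stood among the 10 leading genes of clusters 1 and 10. In interfollicular basal-like keratinocytes, 0.520%, 1.52% and 0.778% of thinned cells held a Ccn2 UMI, against 1.08%, 0% and 1.29% of T or natural killer-like cells. Ccn2 was thus not told apart from background there, though the highest thinned basal-like cell held 1, 8 and 4 UMIs. The 0% is 0 of 56 cells, and its exact 95% interval reaches 6.38%.

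Ccn2 differed by at least 1.5-fold in 3 places. Fibroblast-like cells held 111, 69.9 and 88.3 CPM, with a 2-week ratio of 0.63 (0.48 to 0.82). Cluster 3, led by Sostdc1, Gata6 and Ccl27a, was at 76.0 CPM in control and 46.7 in the 3-week knockout, a ratio of 0.61 (0.50 to 0.75). Cluster 15 was at 57.3, 84.1 and 90.3 CPM, with ratios of 1.47 (1.16 to 1.88) and 1.58 (1.22 to 2.05). In cluster 15 the 3-week knockout thus held less Ccn1 and more Ccn2 than control.

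Summing all epithelial cells gave another picture. Bulge-like cells were 10.9%, 31.5% and 9.45% of the 3 libraries. Over all epithelial cells Ccn2 was at 68.1, 152 and 37.0 CPM and Ccn1 at 581, 784 and 360 CPM, highest in the 2-week library that held the most bulge-like cells. In that library the epithelial ratio of Ccn1 was 1.35, while its bulge-like ratio was 0.71. In such a sum, more cells of a type and more RNA per cell cannot be told apart, which is why the values here are given within classes.

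The genes whose profile was most like that of Ccn1 over 48 sums (16 classes or clusters in 3 libraries, log2 of CPM plus 5, 11078 genes) were Gas1 (Pearson r = 0.84), Ltbp3 (0.81), Nbl1 (0.81), Zfp503 (0.79) and Ecm1 (0.79). For Ccn2 they were Grem1 (0.92), Nt5e (0.85), Sema3e (0.85), Postn (0.85) and Ltbp2 (0.84). Ccn1 and Ccn2 had no gene in common among these 5. The sums of one library share its depth and those of one class share its cells, so these values describe likeness only.

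Ankrd1, a muscle ankyrin repeat protein and a strong YAP target in many cultured cells, was almost absent. All epithelial cells together held 2, 3 and 0 UMIs in control, 2-week and 3-week libraries. Interfollicular basal-like cells held none in any library, which allows a level of up to 0.252, 0.168 and 0.117 CPM (3 counts). No comparison of Ankrd1 was possible at this depth.

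Among the feedback inhibitors, Amotl2, an angiomotin family scaffold, differed in direction between parts of the follicle. Outer bulge-like cells held 46.8, 32.0 and 30.4 CPM of Amotl2 (chr9:102716672-102733418, plus strand), with ratios of 0.68 (0.58 to 0.81) and 0.65 (0.52 to 0.80). Both knockout libraries were below control there and close to each other. Cluster 1 of the class had ratios of 0.63 and 0.61. At 3 weeks Amotl2 was not measurable in cluster 13, and cluster 16 was not compared. The difference could therefore not be placed within the class. With the clusters of the class weighed equally the log2 ratios were 0.07 and -0.02 in place of -0.55 and -0.63. That weighing counts cluster 16, with 24 control cells, as much as each larger cluster. Cluster 10 had ratios of 0.70 (0.53 to 0.93) and 0.58 (0.39 to 0.86), and dermal papilla or sheath-like cells 0.63 (0.45 to 0.88) and 0.70 (0.52 to 0.95). In cycling keratinocytes the values were 25.1, 19.9 and 14.3 CPM, and in upper hair follicle-like cells, led by Cst6, Defb6 and Krt79, they were 27.1, 34.4 and 42.6 CPM. The first pair of ratios lay below 1, at 0.79 and 0.57, and the second above it, at 1.27 and 1.57. Interfollicular basal-like cells held 13.3, 12.8 and 11.8 CPM, below the level set for a comparison.

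Lats2, the kinase that phosphorylates YAP and TAZ, was highest outside the epithelium. T or natural killer-like cells held 247, 205 and 142 CPM of Lats2 (chr14:57689662-57758388, minus strand), and the 3-week ratio was 0.58 (0.44 to 0.75). In outer bulge-like cells it was at 39.8, 33.04 and 37.7 CPM, with ratios of 0.83 (0.70 to 0.99) and 0.95 (0.77 to 1.17). With the clusters of that class weighed equally, its log2 ratios were 0.36 and 0.66 in place of -0.27 and -0.08. That weighing includes cluster 16 with its 24 control cells. Interfollicular basal-like cells held 17.9, 15.9 and 15.6 CPM and were not compared. An annotated gene model, Gm49361, overlaps Lats2 on its own strand, so some counts could be shared.

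Ptpn14, a phosphatase that binds YAP, was widespread in keratinocytes and differed little. Interfollicular basal-like cells held 187, 175 and 169 CPM of Ptpn14 (chr1:189728268-189876695, plus strand), with ratios of 0.93 (0.88 to 0.99) and 0.90 (0.86 to 0.95). Bulge-like ratios were 0.96 and 1.07. Cluster 3, where Ptpn14 was highest among keratinocytes in control, held 234, 158 and 179 CPM, ratios of 0.68 and 0.76. Fibroblast-like cells, with 16.5, 36.0 and 34.0 CPM, were the one class in which both knockouts held over 1.5-fold more, at 2.18 (1.39 to 3.37) and 2.06 (1.53 to 2.79). These fibroblast values rest on 64, 33 and 171 UMIs, and basal keratinocyte markers summed to 1646, 2620 and 2679 CPM in the same cells. The part of those markers in the Ptpn14 values was not tested. Within the class, Ptpn14 was not called higher in cluster 9 at 3 weeks or in cluster 17 at 2 weeks. Gm30280 overlaps Ptpn14 on the same strand.

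Ajuba, a LIM protein of cell junctions that holds LATS kinases inactive under tension, was higher in the 3-week knockout in several keratinocyte groups, and in basal-like cells at 2 weeks too. In interfollicular basal-like keratinocytes it was at 21.4, 36.4 and 53.1 CPM (255, 652 and 1359 UMIs; chr14:54567472-54577558, minus strand). The ratios were 1.70 (1.47 to 1.97) and 2.48 (2.17 to 2.84), the 3-week library being the highest. The class joined cluster 2, led by Epgn, Tslp and Itga2, and cluster 7, led by Fbxo32, Ndufa4l2 and Krt14, and the 2 differed. Cluster 2 held 13.1, 21.9 and 38.7 CPM of Ajuba, with ratios of 1.67 and 2.96. Cluster 7 held 82.7, 70.6 and 77.9 CPM, with ratios of 0.85 (0.69 to 1.06) and 0.94 (0.77 to 1.15). Cluster 7 also made up more of the class in the knockouts, with 130 of 779, 553 of 1555 and 809 of 1971 cells. The higher Ajuba of the class thus came with both a higher level in cluster 2 and more cells of cluster 7. With the 2 clusters weighed equally the 2-week log2 ratio was -0.05 in place of 0.76, and the 3-week one 0.28 in place of 1.31. Elsewhere in the epithelium the 3-week ratio of Ajuba was 1.55 (1.25 to 1.92) in bulge-like cells, 1.77 (1.43 to 2.20) in cycling cells, 1.86 (1.17 to 3.01) in cluster 10 and 1.83 (1.09 to 3.16) in cluster 15. At 2 weeks none of these reached 1.5-fold: the ratio was 1.09 (0.908 to 1.32) in bulge-like cells, 1.25 (0.988 to 1.58) in cycling cells and 1.48 (0.996 to 2.26) in cluster 10, and cluster 15 was not measurable. Within the cycling class, cluster 21 alone was past it (2.42). With its clusters weighed equally, cluster 16 with its 24 control cells included, the bulge-like class had a 3-week log2 ratio of -0.04 in place of 0.63.

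**Figure D3:**
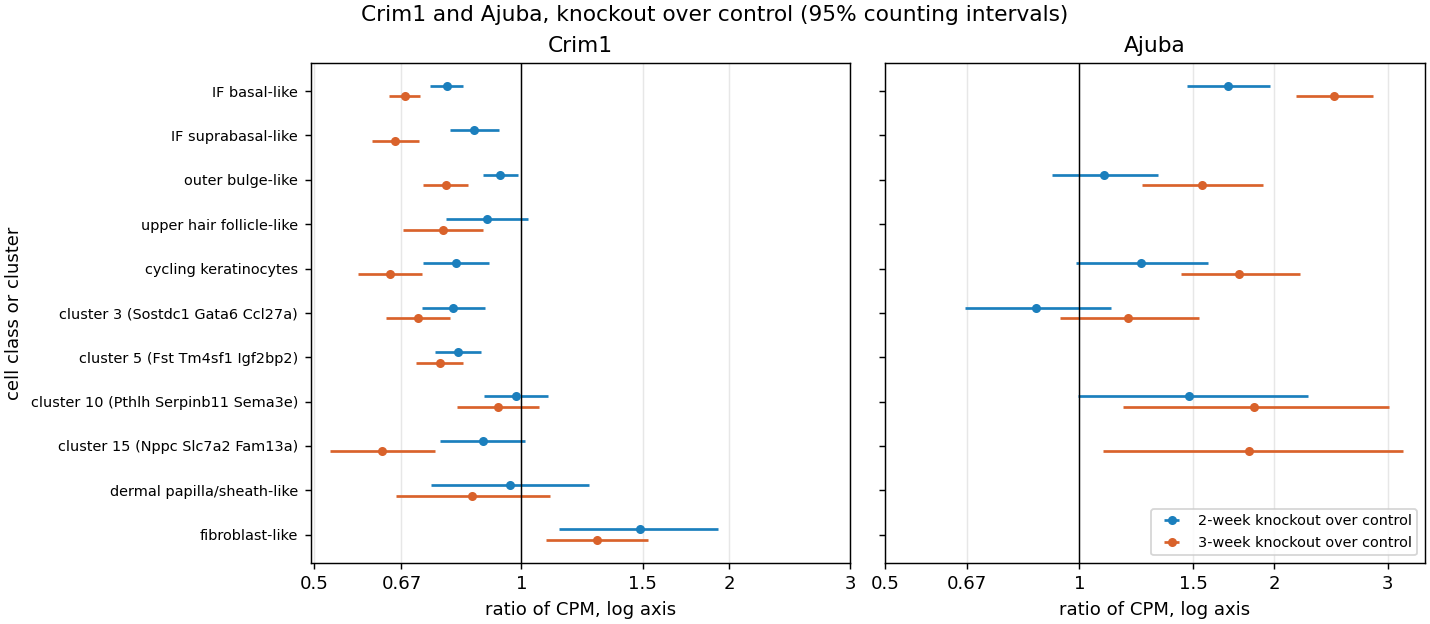
Ratio of CPM, knockout over control, of Crim1 (left) and Ajuba (right) on a log axis, for keratinocyte classes and clusters, dermal papilla or sheath-like and fibroblast-like cells where the gene was measurable; bars are 95% counting intervals. In the keratinocyte groups plotted, which are whole classes and the unnamed clusters, the 3-week values lie below 1 for Crim1 and above 1 for Ajuba.

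Of the 2 membrane proteins, Crim1, a transmembrane protein with cysteine-rich repeats that binds bone morphogenetic proteins, was below control in both knockouts in the keratinocyte classes taken whole. In interfollicular basal-like keratinocytes it was at 197, 154 and 134 CPM (2347, 2753 and 3417 UMIs; chr17:78200248-78376592, plus strand). Its ratios were 0.78 (0.74 to 0.82) and 0.68 (0.64 to 0.71). Both clusters of the class gave like values, 0.76 and 0.69 in cluster 2 and 0.84 and 0.68 in cluster 7. Suprabasal-like cells held 82.4, 70.3 and 54.1 CPM, cycling cells 182, 146 and 118, and upper hair follicle-like cells 120, 107 and 92.2. In each of these the 3-week library was lowest and the 2-week library lay between it and control. Outer bulge-like cells held 346, 322 and 268 CPM, with ratios of 0.93 (0.88 to 0.99) and 0.78 (0.72 to 0.84). Cluster 13 of that class stood at 1.02 and 1.01, and cluster 1 at 0.92 and 0.76. With the clusters weighed equally, cluster 16 with its 24 control cells included, the bulge-like log2 ratios of Crim1 were 0.07 and -0.10 in place of -0.10 and -0.37. Cluster 10 held 391, 384 and 362 CPM, with ratios of 0.98 and 0.92. Fibroblast-like cells went the other way, with 57.3, 85.2 and 73.8 CPM and ratios of 1.49 (1.13 to 1.93) and 1.29 (1.09 to 1.53). Over all epithelial cells Crim1 was at 185, 187 and 114 CPM, so its 2-week difference did not show in the sum. A small RNA model, Gm25069, overlaps Crim1 on the same strand.

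Axl, a receptor tyrosine kinase of the TAM family, was highest in the mesenchyme. Fibroblast-like cells held 217, 178 and 252 CPM of Axl (chr7:25757273-25788705, minus strand). Dermal papilla or sheath-like cells held 185, 114 and 127 CPM, with ratios of 0.61 (0.53 to 0.71) and 0.69 (0.60 to 0.79). Both knockouts were lower than control in the papilla-like class. In outer bulge-like cells Axl was at 59.7, 41.1 and 50.4 CPM (ratios 0.69 and 0.84), and in cluster 15 at 42.8, 27.9 and 23.8 CPM (0.65 and 0.56). Interfollicular basal-like cells held 34.1, 36.3 and 36.0 CPM, with ratios of 1.06 (0.94 to 1.21) and 1.06 (0.94 to 1.19). The Axl values moved with depth. In cells thinned to 3000 UMIs the bulge-like log2 ratios were -0.74 and -0.58 in place of -0.54 and -0.24. The basal-like ones were -0.08 and -0.13 in place of 0.09 and 0.08.

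**Figure D4:**
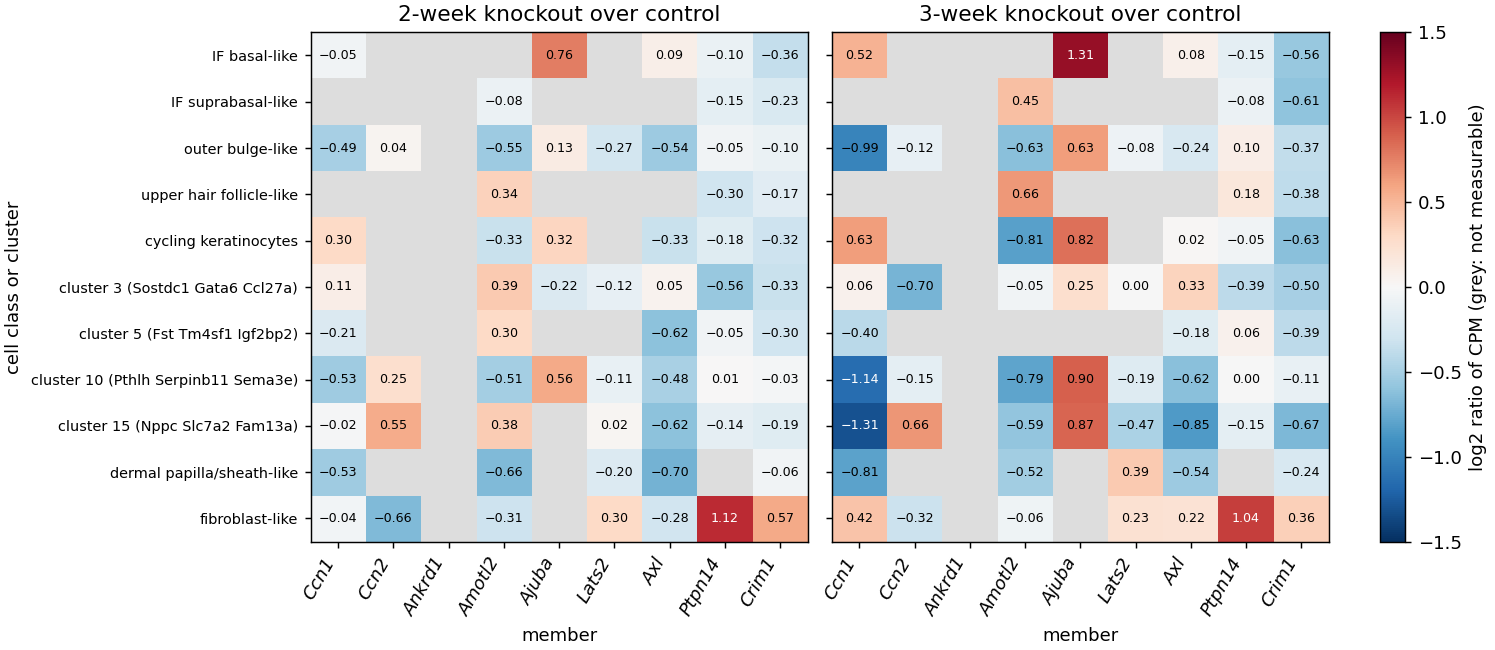
Log2 ratio of CPM, 2-week (left) and 3-week (right) knockout over control, for the 9 genes (columns) in 11 cell classes or clusters (rows); blue is lower and red higher in the knockout, and grey is not measurable. Crim1 is negative in all 9 keratinocyte groups of both panels, while Ccn1 ranges from -1.31 in cluster 15 to 0.63 in cycling cells at 3 weeks.

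The target genes were then counted by class. In interfollicular basal-like keratinocytes, of 5 measurable genes, 0 were lower and 1, Ajuba, was higher in either knockout, where 4.44% of 5069 measurable genes were lower and 3.63% higher at 2 weeks, and 11.1% of 5067 lower and 5.55% higher at 3 weeks. Their median log2 ratios were -0.05 and 0.08, against 0.02 and -0.04 over all measurable genes. In outer bulge-like cells, 0 of 8 were lower or higher at 2 weeks (all genes 5.12% lower and 3.51% higher). At 3 weeks 2 of 8, Ccn1 and Amotl2, were lower and 1, Ajuba, was higher (all genes 12.2% and 8.65%). Their medians there were -0.19 and -0.18, against -0.03 and -0.05 over all genes. Ratios below 1 numbered 6 of 8 in each comparison, against 53.6% and 54.3% of all measurable genes. Within cluster 1, 2 of 8 were lower at 2 weeks, Amotl2 among them, and 0 higher (all genes 5.2% and 3.43%). At 3 weeks 2 of 8 were lower and 1 higher there (12.8% and 7.77%). Ratios below 1 in cluster 1 numbered 7 and 6 of 8. Within cluster 13, 0 of 3 passed at 2 weeks (10.6% and 10.7%). At 3 weeks 1 of 2 there, Ccn1, was lower (20.8%).

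Cluster 10 gave 0 of 8 in either direction at 2 weeks (9.03% of all genes lower, 6.56% higher), and at 3 weeks 3 lower, Ccn1, Amotl2 and Axl, and 1 higher, Ajuba (14.2% and 9.83%). Cluster 15 gave 1 of 7 lower and 0 higher at 2 weeks (5.17% and 4.9%). At 3 weeks it gave 4 of 8 lower, Ccn1 among them, and 2 higher, Ccn2 and Ajuba (14.3% and 10.2%). The 3-week median log2 ratio in cluster 15 was -0.53, against -0.02 over all measurable genes. In cycling keratinocytes 0 of 6 passed in either direction at 2 weeks (5.18% and 3.92%). At 3 weeks Amotl2 and Crim1 were lower and Ccn1 and Ajuba higher, 2 of 6 each way (9.36% and 5.34%). Cluster 14 made up 87 of 143 control and 284 of 380 3-week cycling cells. Within cluster 14 Ccn1 alone of 5 was called at 3 weeks, higher at 1.57 (all genes 9.07% lower and 5.47% higher). Within cluster 21, of 6 genes, Ajuba was higher at 3.77 and Crim1 lower at 0.65 (all genes 12.3% lower and 9.67% higher). Dermal papilla or sheath-like cells gave 2 of 5 lower at 2 weeks, Amotl2 and Axl, and 0 higher (7.56% and 5.14%), and 1 of 5 lower at 3 weeks, Ccn1, and 0 higher (9.65% and 11%). Fibroblast-like cells gave 1 of 7 lower, Ccn2, and 1 higher, Ptpn14, at 2 weeks (9.01% and 16.7%). At 3 weeks they gave 0 lower and 1 higher, again Ptpn14 (5.16% and 12.7%). Within cluster 9, of 6 genes, 1 was lower and 1 higher at 2 weeks (11.7% and 17.5%). There 1 was lower and 0 higher at 3 weeks (5.22% and 15.7%). Within cluster 17, 1 of 6 was lower and 0 higher at 2 weeks (9.96% and 9.71%). At 3 weeks 1 of 7 passed each way there (10.8% and 12.8%). Cluster 3 gave 0 of 7 either way at 2 weeks (3.59% and 3.27%). At 3 weeks it gave 1 of 8 lower, Ccn2, and 0 higher (7.23% and 3.87%). Cluster 5 gave 1 of 5 lower at 2 weeks (2.68%) and 0 of 4 at 3 weeks (9.95%), none higher. Suprabasal-like cells gave 0 of 3 lower, then 1 of 3 (5.66% and 9.1%), none higher. Upper hair follicle-like cells gave 0 of 3 higher, then 1 of 3, Amotl2 (6.7% and 6.46%), none lower. With at most 8 genes per class or cluster, a share of this size tells little beyond the genes named.

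Other genes of a YAP and TAZ signature were counted in basal-like cells too. Of 14 genes, 5 were measurable, and 2 at 2 weeks and 3 at 3 weeks were lower (4.44% and 11.1% of all genes were), none higher, with medians of -0.18 and -0.70. Within cluster 2, 2 of 5 were lower in each comparison (all genes 2.98% and 9.44%), with medians of -0.12 and -0.42. Within cluster 7, 1 of 4 and 1 of 3 were lower, Fjx1 both times (all genes 5.21% and 8.22%), with medians of 0.10 and -0.21. F3, which encodes tissue factor, the initiator of blood clotting, was at 802, 345 and 172 CPM, a 3-week ratio of 0.21 (0.21 to 0.22). Gadd45a, a growth arrest and DNA damage gene, was at 360, 154 and 136 CPM. The highest ratios were those of Myof, a membrane repair ferlin (1.20 and 0.90), and Asap1, a regulator of the small GTPase ARF (0.90 and 0.90). In outer bulge-like cells 1 of 6 measurable signature genes, Gadd45a, was lower in each comparison (all genes 5.12% and 12.2%) and none was higher, with medians of -0.10 and 0.03.

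Genes of the Hippo pathway itself were counted in the same way. Of 24 genes 16 were measurable in interfollicular basal-like cells, of which 2 were lower at 2 weeks and 7 at 3 weeks (all genes 4.44% and 11.1%), and none higher, with medians of -0.17 and -0.31. Tead1, a DNA-binding partner of YAP and TAZ, was at 93.7, 46.4 and 46.0 CPM, ratios of 0.495 (0.452 to 0.542) and 0.491 (0.452 to 0.533). Wwtr1, which encodes TAZ, was at 290, 185 and 161 CPM, ratios of 0.64 (0.61 to 0.67) and 0.56 (0.53 to 0.58). Yap1 was not lower, at 72.7, 86.7 and 78.9 CPM, and Tead3 (1.12 and 0.89) and Frmd6 (1.01 and 1.05) were the others with the highest ratios. In cluster 2, 2 and 5 of 17 Hippo genes were lower (all genes 2.98% and 9.44%), and in cluster 7, 0 of 16 and 0 of 15 (all genes 5.21% and 8.22%). Tead1 had the lowest ratio of the measurable Hippo genes in cluster 2 in both comparisons. In cluster 7 it was among the 2 highest at 3 weeks. The difference between the clusters was not tested.

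In outer bulge-like cells, 1 of 16 and 2 of 16 Hippo genes were lower, near the 5.12% and 12.2% of all genes, and none was higher, with medians of -0.24 and -0.22. Wwtr1 was at 129, 92.2 and 68.6 CPM, with ratios of 0.72 and 0.53, lower than in basal-like cells in every library. Wwc1, which encodes the scaffold KIBRA, was at 24.9, 10.7 and 15.5 CPM, with ratios of 0.43 (0.34 to 0.55) and 0.62 (0.46 to 0.84). Tead1 there was at 63.4, 58.6 and 67.8 CPM, with ratios of 0.93 (0.81 to 1.06) and 1.07 (0.91 to 1.26). These ratios were unlike those of the basal-like class as a whole, though the difference between the classes was not tested. Wwc2 (0.97 and 1.02) and Frmd6 (0.99 and 0.96) stood near 1.

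**Figure D5:**
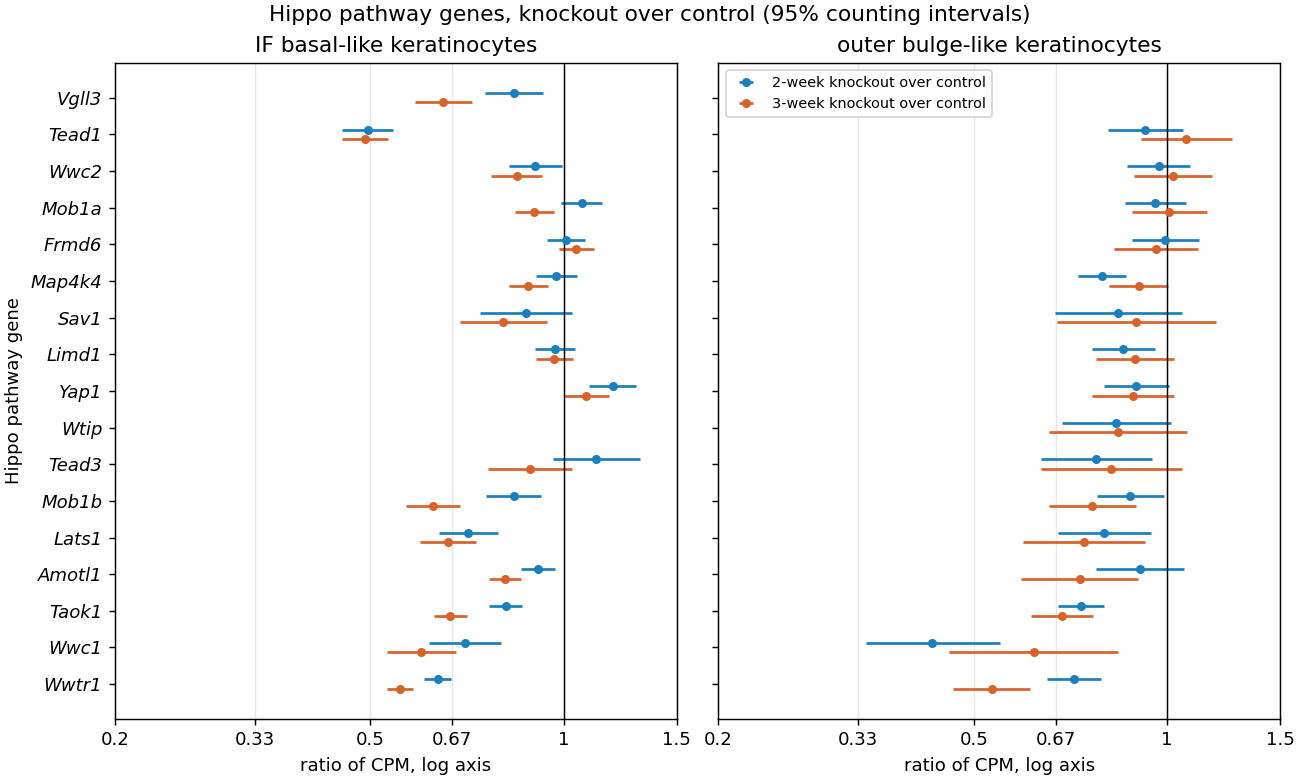
Ratio of CPM, knockout over control, of Hippo pathway genes in interfollicular basal-like (left) and outer bulge-like (right) keratinocytes on a log axis; bars are 95% counting intervals and genes not measurable in a class are left out. At 3 weeks Tead1 is the lowest gene of the left panel, at 0.491, and Wwtr1 of the right, at 0.533, while Yap1 lies at 1.08 and 0.884.

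Ccn1 is also known as an immediate early gene that serum induces, so a pair of further lists was counted. Of the immediate early and dissociation genes, 16 of 16 were measurable in both classes. In the bulge-like class 0 were lower (all genes 5.12% and 12.2%) and 0 higher (3.51% and 8.65%) in either comparison, with medians of 0.06 and 0.07. In cluster 13 of that class, though, 13 of 16 were higher at 2 weeks (10.7% of all genes there) and 14 of 16 at 3 weeks (10.3%), with medians of 0.73 and 0.996. Over the class Fos was at 8610, 12462 and 11760 CPM, and Egr1 at 5451, 5736 and 5515 CPM. In interfollicular basal-like cells 4 of 16 were higher at 2 weeks and 12 of 16 at 3 weeks, where 3.63% and 5.55% of all genes were, 0 were lower, and the medians were 0.23 and 0.76. In cluster 2, 2 and 9 of 15 were higher (all genes 3.03% and 4.72%), with medians of -0.04 and 0.64. In cluster 7, 0 and 1 of 15 were higher (all genes 3.81% and 3.24%), with medians of 0.04 and 0.23. Fos (ratios 2.30 and 2.92) and Socs3 (2.10 and 2.45) had the highest ratios, and Ier3 the lowest (0.82 and 0.87), followed by Junb at 2 weeks (0.91) and Hspa1b at 3 weeks (1.01). Ccn1 was higher at 3 weeks in these cells and in others, and the part of the early response genes in its values was not tested. In cycling keratinocytes, where Ccn1 was also higher, 2 of 15 were higher at 3 weeks (all genes 5.34%). In fibroblast-like cells, where it was highest at 3 weeks too, 12 of 16 were (12.7%). In dermal papilla or sheath-like cells, where Ccn1 was lower, 9 and 13 of the 16 were higher (all genes 5.14% and 11%). At 3 weeks Ccn1 was lower in clusters 10 and 15 as well. There 8 of 16 and 6 of 16 were higher in that comparison (all genes 9.83% and 10.2%).

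Serum response factor targets, mostly actin and actin-binding genes, were lower in part in both classes as summed. In interfollicular basal-like cells 3 of 10 and 4 of 10 were lower, where 4.44% and 11.1% of all genes were, and 0 higher, with medians of -0.54 and -0.49. Cluster 2 gave 3 of 10 lower in each comparison (all genes 2.98% and 9.44%), with medians of -0.47 and -0.36. In cluster 7 the medians lay above 0, at 0.17 and 0.37. There 0 of 9 were lower in either comparison (all genes 5.21% and 8.22%), and 0 and 1 were higher (3.81% and 3.24%). Actb was at 9627, 4972 and 5364 CPM, and Zyx, a focal adhesion protein, at 132, 60.9 and 65.9 CPM. Cnn2 (1.09 and 1.24) and Tagln2 (0.91 and 1.07) had the highest ratios. In outer bulge-like cells 3 of 8 and 5 of 9 were lower (all genes 5.12% and 12.2%), with medians of -0.46 and -0.63, and Tpm1, an actin filament protein, was at 799, 531 and 336 CPM. In cluster 13 of that class 0 of 8 and 1 of 7 were lower (all genes 10.6% and 20.8%).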

How the data were processed

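Single-cell transcript counts of mouse back skin were measured in 3 libraries, 1 per group. Per the labels' protocols, cells were freed with collagenase I (2.5 mg/ml, 2 hours) and trypsin (0.25%, 7 minutes) and libraries followed the 10x 3′ chemistry. The deposited matrices hold raw UMI counts per gene and cell, made by the authors with Cell Ranger 6.1.2 and mm10 per the submitters' processing notes. Which annotation was used, and whether introns were counted, is not given in the sources used here. The deposited matrices held 5621, 11144 and 11186 barcodes (62967542, 97960352 and 118610125 UMIs).

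Cells with under 500 genes or at least 15% mitochondrial counts were left out. Scrublet in scanpy 1.11.5 then left out 139, 330 and 417 doublets. The 2000 most variable genes without the 9 target genes, 1 of which would have been among them, were taken to 30 principal components. A Jaccard graph of 15 neighbours was split by Leiden (resolution 1), giving 30 clusters. A class name required 3 markers found in 10% of cells or more and a score 0.25 above any other class. Clusters without one are called by number. The naming rule and its thresholds were set after clusters of these data had been seen. UMIs were summed per class and library, and classes needed 100 cells per library (50 within a cluster). CPM carry exact Poisson intervals, shares Clopper-Pearson intervals and ratios exact conditional intervals. The ratio code was checked on simulated counts. The 9 genes, the 4 further lists and the named-gene rule were chosen with earlier results of these data known. That rule took all 9 genes, the 2 highest and 2 lowest measurable ratios of each further list in basal-like cells, and the 5 genes most like Ccn1 and Ccn2. Further genes named in other classes were chosen after their values were seen. Promoters came from RefSeq and gene positions from GENCODE on mm10. The alternatives tried were other clusterings, filters, totals, offsets and weights. A gene of the Hippo list is not reported here and was left out of its counts.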

Additional observations from a re-analysis of the deposited data

Results flagged for a closer look

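In the 3-week comparison 3 of the target genes had ratios of knockout over control that lay on opposite sides of 1 by at least 1.5-fold in different keratinocyte groups, each with 1 library per group. Amotl2 had a ratio of 0.569 in cycling keratinocytes and 1.57 in upper hair follicle-like cells. Ccn1 had a ratio of 0.403 in cluster 15 and 1.55 in cycling keratinocytes. Ccn2 had a ratio of 0.614 in cluster 3 and 1.58 in cluster 15. None of these differences between groups was tested.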

How the results depend on the processing

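Each value of the target genes in interfollicular basal-like and outer bulge-like keratinocytes was recomputed under 14 alternatives, those for bulge-like cells and for higher genes being chosen after the data were seen. Of 364 recomputed single-gene log2 ratios, 345 kept their sign. The lower Ccn1 of 3-week bulge-like cells stayed past 1.5-fold under all 14, with log2 ratios from -1.10 (cells thinned) to -0.64 (clusters weighed equally). With clusters weighed equally Ajuba changed sign, to -0.0497 in 2-week basal-like and -0.0408 in 3-week bulge-like cells. In 2-week bulge-like cells it went from 0.127 to -0.566. Lats2 in bulge-like cells went from -0.270 to 0.356 at 2 weeks and from -0.080 to 0.656 at 3 weeks. Under this weighing Lats2 was past 1.5-fold higher in 3-week bulge-like cells, and Ajuba was not. In the bulge-like class this weighing counts cluster 16, with 24 control cells, as much as each larger cluster. The cause of the changes given here and below was not tested.

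In basal-like cells at 2 weeks the count of higher genes (1) became 0 with each library clustered on its own, 0 with clusters weighed equally and 2 with at least 20 UMIs and no minimum level, and the median (-0.05) became -0.16 with clusters weighed equally. At 3 weeks the count of higher genes (1) became 2 at resolution 0.5, 2 with totals without ribosomal, mitochondrial, Gm42418 and Malat1 counts, 2 with at least 20 UMIs and no minimum, and 0 with clusters weighed equally. With cells thinned to 3000 UMIs the count of lower genes (0) became 1 and the median (0.08) became -0.13. In bulge-like cells at 2 weeks the count of lower genes (0) became 1 with libraries clustered on their own, 2 with the mean CPM of each cell and 1 with thinned cells. At 3 weeks the count of lower genes (2) became 1 at resolution 2, with libraries clustered on their own, with doublets kept, with the reduced totals, with centring on the median of all genes, with clusters weighed equally, with thinned cells and with an offset of 5 CPM. The count of higher genes there (1) became 0 with the mean CPM of each cell, with thinned cells and with the offset. The reduced totals moved the median of all genes by 0.10 (log2) in that comparison and by 0.05 to 0.08 in the others.

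No paired analysis was possible because each group is 1 library, and leaving out a library would leave a group empty. Depth limits Ankrd1, which was measurable in no class. Amotl2 and Lats2 had over 50 UMIs in basal-like cells and were not compared there because they lay under 20 CPM.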
